A study of Mus musculus with 12 samples.

Results

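The cytosolic heat shock chaperones of the mouse retina were examined as a group of 9 genes: Hspa1a, Hspa1b, Hspa8, Hsph1, Hsp90aa1, Dnajb1, Hspb1 and Hspb8, together with Hsf1, the transcription factor that drives most of them. They are defined by name, as a family, and not by a threshold on their values, and all 9 were found among the 54532 gene identifiers of the count and FPKM tables. Retinal RNA had been sequenced in 12 libraries, 3 from each of 4 groups of wild type C57BL/6 mice aged 13 weeks, and the mice were female. SHAM mice were the sham controls. MOG mice had been immunized with a peptide of myelin oligodendrocyte glycoprotein in complete Freund's adjuvant with pertussis toxin, which induces experimental autoimmune encephalomyelitis (EAE) with optic neuritis (ON). GB20 and GV16 mice had the same immunization and were then needled repeatedly at the acupoint GB20 or at the control acupoint GV16, each time under xylazine and ketamine. Whether SHAM or MOG mice were anesthetized is not described, so needling and anesthesia cannot be told apart in the comparisons with those groups. The paper also does not state whether SHAM mice were given the adjuvant or the pertussis toxin. In comparisons with SHAM, the peptide therefore cannot be told apart from adjuvant and toxin. Each library came from a separately labelled sample, but how many mice it holds is not stated in the sources used here. The p-values therefore measure the spread between these samples.

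Heat shock proteins hold unfolded proteins until they fold or are degraded, and they were named for their rise after heat. HSP70 proteins bind exposed stretches of a client protein, J-domain proteins such as Dnajb1 deliver the client and start ATP hydrolysis, HSP110 proteins such as Hsph1 exchange the nucleotide, and HSP90 takes over late folding steps. Small heat shock proteins keep clients from aggregating without using ATP. In unstressed cells the chaperones restrain Hsf1, and when unfolded proteins occupy them Hsf1 trimerizes and binds heat shock elements, inverted repeats of the unit GAA, in their promoters. In the retina these proteins are known from photoreceptors and from ganglion cells after injury of the optic nerve.

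The promoters of the members are shown first, since Hsf1 acts on chaperone genes through heat shock elements. RefSeq promoter windows on GRCm38.p6, each of 300 bases (250 before the gene start and 50 from it on), were at hand for 6 of the 9 members in 8 windows. Windows of Hspa8, Hsp90aa1 and Hsf1 were not analysed here. The windows were searched for the 2-unit elements GAANNTTC and TTCNNGAA, each of which is its own reverse complement, so that both strands were covered, and overlapping matches were counted. A 2-unit element was present in 6 of the 8 member windows (75%, 5 of the 6 members), in 28.6% of 28 windows of other HSF1 target genes and in 15.1% of all 32851 windows. The member windows are not independent: both windows of Hsph1 overlap and hold the same matches, and those of Hspa1a and Hspa1b are nearly identical. Neither motif was in the windows of Dnajb1. A match is a description of these letters and not a mapped site. The windows of 3 members are printed for the 250 bases before the gene start, 5′ to 3′ on the gene's strand, with the 2-unit elements in capitals. Hsph1 is shown as the member with the lowest adjusted p-value below, Hspa1a as the classical inducible gene, and Hspb1 for its 2 elements before the gene start. Hsph1 had 2 further matches, which start at bases 37 and 42 from the gene start on and are not in the printed stretch. These matches overlap and share their middle unit, so they form a continuous run of units and not separate elements. The RefSeq start of Hsph1 lies inside the gene as GENCODE draws it, so that the printed bases nearest to the start, the element in capitals included, are within the GENCODE gene.
Hsph1, chr5:149636337-149636586, minus strand: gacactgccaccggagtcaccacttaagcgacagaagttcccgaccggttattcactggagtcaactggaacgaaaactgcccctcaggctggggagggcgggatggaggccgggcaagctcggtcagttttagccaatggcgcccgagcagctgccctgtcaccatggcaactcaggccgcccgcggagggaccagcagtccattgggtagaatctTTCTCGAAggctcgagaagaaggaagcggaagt
Hspa1a, chr17:34972157-34972406, minus strand: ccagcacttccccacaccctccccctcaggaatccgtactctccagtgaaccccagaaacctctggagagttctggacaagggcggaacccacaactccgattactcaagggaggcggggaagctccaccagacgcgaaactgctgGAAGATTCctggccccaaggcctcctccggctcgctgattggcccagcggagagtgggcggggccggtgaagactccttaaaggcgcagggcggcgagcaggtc
Hspb1, chr5:135887669-135887918, plus strand: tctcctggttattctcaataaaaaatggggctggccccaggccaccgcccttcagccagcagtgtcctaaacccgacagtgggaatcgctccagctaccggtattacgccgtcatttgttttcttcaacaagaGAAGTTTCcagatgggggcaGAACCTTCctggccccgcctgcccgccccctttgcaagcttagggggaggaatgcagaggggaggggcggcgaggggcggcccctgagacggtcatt
The windows of Hspa1a and Hspa1b differed at 4 of 300 bases (98.7% identical), and both carried 1 element, starting 104 bases before the gene start.

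Per unit of gene length, Hsp90aa1 and Hspa8 made up most of the group. Mean FPKM (the authors' values, scaled by gene length and depth) over the 12 libraries was 383.9 for Hsp90aa1, the inducible HSP90 isoform that is also expressed at rest in neural tissue, and 159.4 for Hspa8, the constitutive HSP70. Dnajb1 (16.2), Hspa1b (12.9), Hspa1a (10.2), Hsph1 (8.13) and Hsf1 (7.68) followed, and the small heat shock proteins Hspb1 (3.88) and Hspb8 (2.64) were lowest. In the plot of FPKM by library the points of Hsp90aa1 and Hspa8 lay apart from each other and from all others in every library, whereas Hspa1a, Hspa1b, Hsph1 and Hsf1 lay within each other's range or next to it. All 9 members passed the expression filter, which left 18299 genes for testing.

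**Figure D1:**
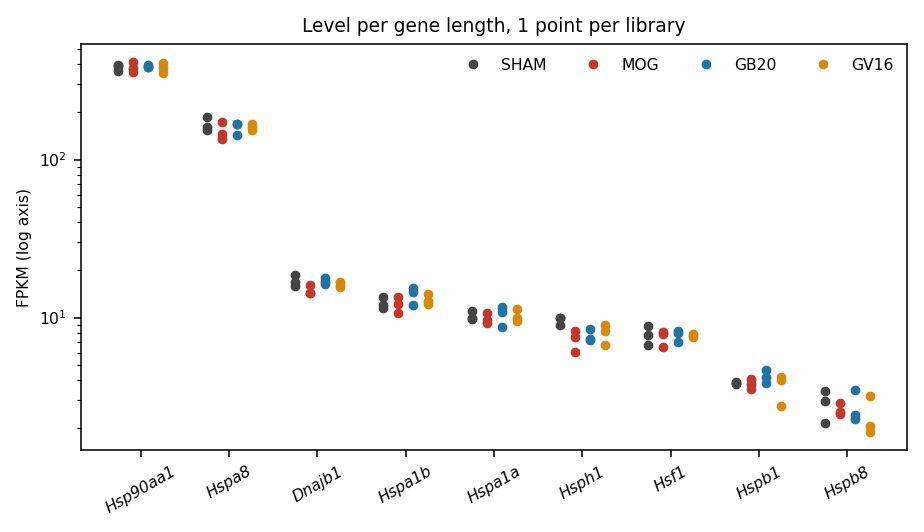
FPKM of the 9 members on a log axis, 1 point per library, coloured by group and ordered by the mean over the 12 libraries. Hsp90aa1 (mean 383.9) and Hspa8 (159.4) stand above the other 7 members, and the 4 groups of each member lie close together.

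Counts were compared as CPM (counts relative to the library size, scaled by TMM) and tested with edgeR over all 18299 genes, with Benjamini-Hochberg adjustment and a call at an adjusted p under 0.05. None of the 9 members was called in any of the 6 comparisons of groups. Of all genes tested, the calls were 1.34% in MOG vs. SHAM, 0.344% in GB20 vs. SHAM, 0.656% in GV16 vs. SHAM, 0.24% in GB20 vs. MOG, 0.00546% in GB20 vs. GV16 and 0.164% in GV16 vs. MOG. At an unadjusted p under 0.05 the members numbered 2 in MOG vs. SHAM (13% of all genes), 1 in GB20 vs. SHAM (9.06%), 1 in GV16 vs. SHAM (10.9%), 1 in GB20 vs. MOG (8%), 0 in GB20 vs. GV16 (2.93%) and 0 in GV16 vs. MOG (5.3%). The members at an unadjusted p under 0.05 were Hsph1 in each comparison with SHAM, and Dnajb1 in MOG vs. SHAM and in GB20 vs. MOG. In GV16 vs. MOG and in GB20 vs. GV16 the groups overlapped for all 9 members, whereas they did not overlap for 12.6% and 8.34% of all genes. DESeq2 called 1 member, Hsph1, in MOG vs. SHAM and 0 in the other comparisons, and its share of all genes called is not given here. The comparisons share libraries, since MOG enters 3 of them and SHAM enters 3.

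**Figure D2:**
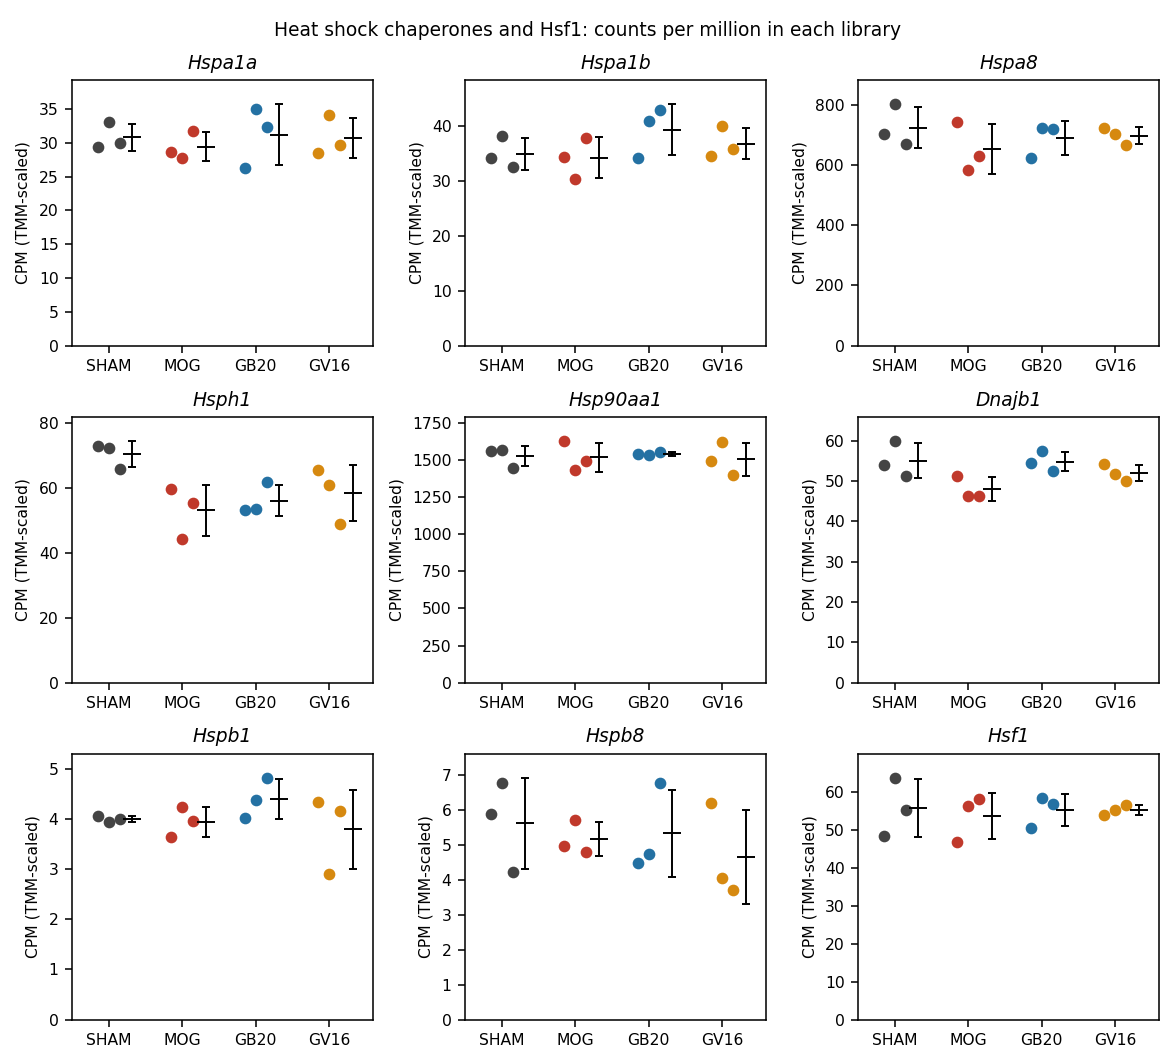
CPM of the 9 members in each library, with 1 panel per gene, an axis from 0, and the group mean with its SD (n = 3) beside the points. Only Hsph1 has all 3 SHAM libraries (65.9 to 73.1 CPM) above every library of the other groups (44.4 to 65.6 CPM).

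Hsph1, the HSP110 nucleotide exchange factor of HSP70, was the member that stood furthest from SHAM. The gene (ENSMUSG00000029657) lies at chr5:149614287-149636376 on the minus strand of GRCm38. Its level was 73.1, 72.4 and 65.9 CPM in the SHAM libraries, 59.6, 44.4 and 55.5 in MOG, 65.6, 60.8 and 48.8 in GV16, and 53.1, 53.6 and 61.8 in GB20. Every SHAM library lay above every library of the 3 immunized groups, by a small margin over GV16 replicate 1, while the immunized groups overlapped each other. The means were 70.4 CPM ± 3.98 (SD, n = 3) in SHAM, 53.2 ± 7.86 in MOG, 56.2 ± 4.85 in GB20 and 58.4 ± 8.64 in GV16. In MOG vs. SHAM the log2 fold change was -0.40 (SE 0.108, 95% interval -0.63 to -0.18), a fold of 0.756, with an adjusted p of 0.0789 by edgeR with Benjamini-Hochberg adjustment, so it missed the threshold. It was 1 of 9 members with groups that did not overlap in that comparison, and 16.2% of all genes tested had such groups. With the filter on low counts removed, edgeR gave an adjusted p of 0.000278 at a nearly unchanged log2 fold change of -0.41. DESeq2 gave an adjusted p of 0.0387 on 12 libraries and 0.0352 on 6. The shares of all genes called at these settings are not given here. Without MOG replicate 2, the lowest library, the log2 fold change was -0.29 with an adjusted edgeR p of 0.45, and without MOG replicate 1 it was -0.50 with 0.0394. The value remained negative under all 23 alternatives, between -0.50 and -0.29.

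Against SHAM, Hsph1 was at a log2 fold change of -0.33 in GB20 (SE 0.108, edgeR adjusted p = 0.281) and at -0.27 in GV16 (SE 0.108, adjusted p = 0.344, Benjamini-Hochberg). Groups that did not overlap numbered 1 of 9 members in each of these comparisons, against 12.7% and 14.5% of all genes. Between the immunized groups the differences of Hsph1 were within their error, at 0.08 (95% interval -0.15 to 0.31) in GB20 vs. MOG, 0.13 (-0.10 to 0.36) in GV16 vs. MOG and -0.06 (-0.28 to 0.17) in GB20 vs. GV16. The intervals against MOG leave room for a rise of up to 0.36 in the needled groups and for a fall to -0.15 on the log2 scale.

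Markers of retinal ganglion cells (RGC) moved in the same comparison. Their summed level ranged from 949.7 to 1074 CPM in SHAM, 545.5 to 656.8 in MOG, 650.3 to 673.1 in GB20 and 521.7 to 742.1 in GV16, no marker was at 0, and in MOG vs. SHAM 13 of 14 fell by the edgeR test. Reactive gliosis genes went the other way, with 8 of 12 higher in MOG and sums of 378.3 to 414.2 CPM in SHAM against 586.6 to 655.4 in MOG. Microglia markers summed to between 43.9 and 52.1 CPM in SHAM and 61.9 and 70.9 in MOG, and 2 of 12 rose. Pigment epithelium markers summed to between 24.5 and 32.8 CPM in SHAM and 42.5 and 56.5 in MOG, with 0 of 10 called. Of the Muller glia markers 1 of 12 was called, of those of blood vessels 0 of 12, and of those of erythrocytes 0 of 3. Of all genes tested, 1.34% were called in MOG vs. SHAM and 13% had an unadjusted p under 0.05. The rod markers, which make up the bulk of the tissue, summed to between 57004 and 63601 CPM over all libraries with 0 of 10 called in MOG vs. SHAM (edgeR, 1 at an unadjusted p under 0.05). The part of these cell types in the Hsph1 difference was not tested, and in bulk RNA fewer cells of a type and less RNA per cell cannot be told apart.

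Dnajb1 (ENSMUSG00000005483, chr8:83608193-83612653, plus strand), the J-domain partner of inducible HSP70, was lowest in MOG. It measured 53.9, 59.8 and 51.3 CPM in SHAM, 51.3, 46.3 and 46.2 in MOG, 54.1, 51.8 and 50.1 in GV16, and 54.4, 57.3 and 52.6 in GB20. The MOG libraries lay below all GB20 libraries, whereas MOG replicate 1 touched the range of SHAM and of GV16. The mean was 55.0 CPM ± 4.37 (SD, n = 3) in SHAM, 47.9 ± 2.93 in MOG, 54.8 ± 2.41 in GB20 and 52.0 ± 2.03 in GV16. By edgeR with Benjamini-Hochberg adjustment the log2 fold change was -0.20 in MOG vs. SHAM (SE 0.0779, adjusted p = 0.27) and 0.19 in GB20 vs. MOG (SE 0.0779, adjusted p = 0.525), and the MOG libraries enter both. All 3 GB20 libraries were above all 3 MOG libraries, which held for 1 of the 9 members and 15.7% of all genes in either direction. The value in GV16 vs. MOG was 0.12 (95% interval -0.05 to 0.28), and the direct difference of the needled groups was 0.07 (-0.09 to 0.24). No alternative called Dnajb1 in any comparison.

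Among the HSP70 genes, Hspa8 (ENSMUSG00000015656, chr9:40800984-40810087, plus strand) measured 702, 801 and 670 CPM in SHAM, 744, 583 and 630 in MOG, 723, 702 and 668 in GV16, and 624, 724 and 720 in GB20. SHAM replicate 2 was the highest and MOG replicate 2 the lowest library, and all groups overlapped. Its log2 fold change was -0.15 in MOG vs. SHAM (SE 0.0910) and 0.08 in GB20 vs. MOG (SE 0.0910), with adjusted edgeR p-values of 0.5 and 0.856 (Benjamini-Hochberg).

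For Hspa1a and Hspa1b, the stress-inducible HSP70 genes, the group means were lowest in MOG and highest in GB20. They lay between 29.5 and 31.2 CPM for Hspa1a and between 34.3 and 39.4 for Hspa1b. Hspa1a measured 29.4, 33.1 and 29.96 CPM in SHAM, 28.7, 27.8 and 31.8 in MOG, 28.4, 34.1 and 29.7 in GV16, and 26.2, 34.96 and 32.4 in GB20. Hspa1b measured 34.2, 38.2 and 32.6 CPM in SHAM, 34.4, 30.5 and 37.9 in MOG, 34.5, 39.99 and 35.9 in GV16, and 34.3, 40.9 and 43.1 in GB20. Every group overlapped every other for both genes. For Hspa1b, GB20 replicates 2 and 3 were the highest of the 12 libraries and GB20 replicate 1 lay among the MOG libraries. Its log2 fold change in GB20 vs. MOG was 0.20 (95% interval -0.01 to 0.41, edgeR adjusted p = 0.63), and in MOG vs. SHAM -0.03 (-0.24 to 0.18). For Hspa1a these were 0.08 (-0.13 to 0.29) and -0.07 (-0.28 to 0.15). A doubling of either gene, which is 1 on the log2 scale, lay outside the 95% interval in each of the 6 comparisons.

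The genes are neighbours on chromosome 17, at chr17:34969190-34972156 (Hspa1a, ENSMUSG00000091971) and chr17:34956436-34959238 (Hspa1b, ENSMUSG00000090877) on the minus strand of GRCm38, and each has a single exon. Of all stretches of 150 bases in their transcripts, 46% (Hspa1a) and 40.5% (Hspa1b) also occur in transcripts of other genes, each other included, and 19% of the Hspa1a exon overlaps a gene on the other strand. How the counting treated reads with several alignments is not given in the sources used here, so how the reads were split between the pair is uncertain. The same holds in part for Hspb1 (39.1% of stretches, shared with Gm9817 and Hsp25-ps1), Hsp90aa1 (28.5%) and Hspa8 (23%), whereas Hsph1, Dnajb1, Hspb8 and Hsf1 shared 0 stretches with other genes.

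Hsp90aa1 (ENSMUSG00000021270, chr12:110690605-110702728, minus strand) varied little. It ranged from 1447 to 1569 CPM in SHAM, 1429 to 1625 in MOG, 1530 to 1556 in GB20 and 1401 to 1620 in GV16, and the spread within a group (coefficient of variation) was between 0.855% and 7.33%. All groups overlapped. Its log2 fold change was -0.01 in MOG vs. SHAM (95% interval -0.17 to 0.15), 0.02 in GB20 vs. MOG (-0.14 to 0.18) and -0.01 in GV16 vs. MOG (-0.17 to 0.15).

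The small heat shock proteins were the least precisely measured, with between 45 and 79 counts per library for Hspb1 and 60 and 115 for Hspb8. Hspb1, which in the nervous system is known for its induction in injured neurons and glia, ranged from 3.94 to 4.06 CPM in SHAM, 3.64 to 4.24 in MOG, 4.02 to 4.81 in GB20 and 2.89 to 4.35 in GV16. Hspb8, the partner of Bag3 in selective autophagy, ranged from 4.22 to 6.76 CPM in SHAM, 4.80 to 5.71 in MOG, 4.48 to 6.76 in GB20 and 3.72 to 6.21 in GV16. Hspb1 (ENSMUSG00000004951) lies at chr5:135887919-135889563 on the plus strand and Hspb8 (ENSMUSG00000041548) at chr5:116408491-116422864 on the minus strand. All groups overlapped for both genes. The log2 fold change in MOG vs. SHAM was -0.02 for Hspb1 (95% interval -0.39 to 0.35) and -0.12 for Hspb8 (-0.55 to 0.32). These intervals leave room for differences in either direction.

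Hsf1 itself (ENSMUSG00000022556, chr15:76477422-76501913, plus strand) ranged from 48.3 to 63.6 CPM in SHAM, 46.7 to 58.1 in MOG, 50.5 to 58.4 in GB20 and 53.8 to 56.5 in GV16. The group means lay between 53.7 (MOG) and 55.7 (SHAM) and all groups overlapped. The log2 fold change was -0.06 in MOG vs. SHAM (95% interval -0.25 to 0.14) and 0.04 in each needled group vs. MOG (upper bound 0.24 in both). Hsf1 is regulated mainly at the protein level, which RNA counts do not measure.

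**Figure D3:**
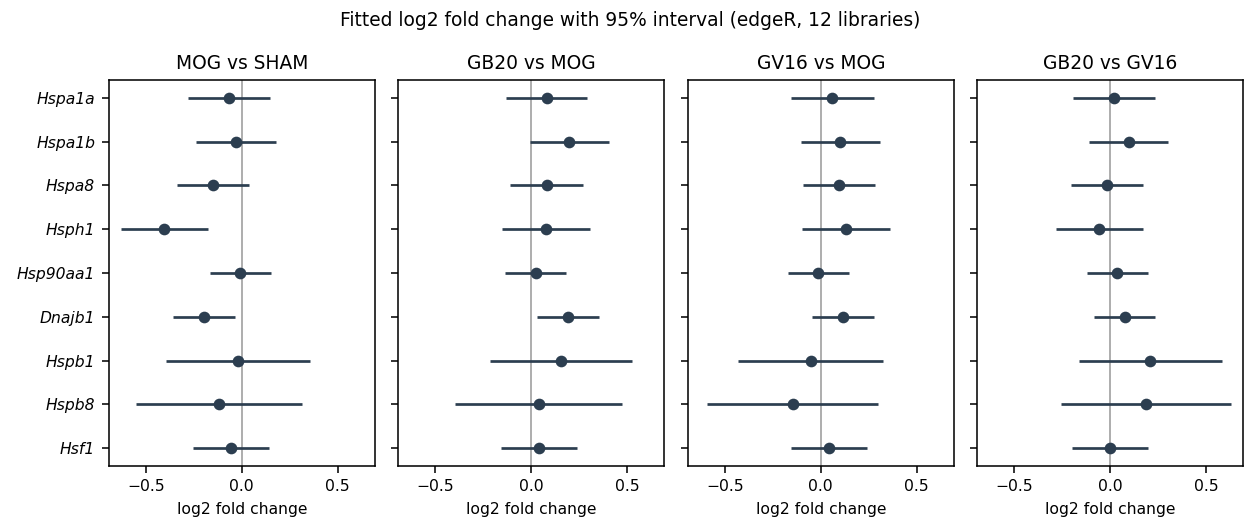
Fitted log2 fold change of each member with its 95% interval (edgeR, 12 libraries), with a vertical line at 0 and 1 panel for each of 4 comparisons. Hsph1 (-0.40) and Dnajb1 (-0.20) lie below 0 with their whole interval in MOG vs. SHAM, and Dnajb1 (0.19) lies above 0 in GB20 vs. MOG.

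As a group the members had small fitted changes, all 9 below 0 in MOG vs. SHAM (median -0.07, against -0.00235 over all genes tested) and all 9 above 0 in GB20 vs. MOG (median 0.08, against 0.000837). Of all genes, 50.5% were below 0 in the first and 50.2% above 0 in the second comparison. Since the MOG libraries enter both, with opposite sign, the patterns are not independent. Members also varied together (r up to 0.813), so the 9 signs are not separate observations. Leaving out a library could turn the sign of Hspa1b, Hspb1, Hspb8, Hsp90aa1 and Hsf1 in MOG vs. SHAM (up to 0.056). In GB20 vs. MOG it could turn that of Hspa1a, Hspb8, Hsph1, Hsp90aa1 and Hsf1 (down to -0.17). In GV16 vs. MOG 6 of 9 were above 0 (50.9% of all genes, member median 0.06), in GB20 vs. GV16 6 of 9 (50.3%, median 0.04), in GB20 vs. SHAM 4 of 9 (50.3%, median -0.01) and in GV16 vs. SHAM 1 of 9 (49%, median -0.05). Gene length moved with these comparisons: over 11152 genes the rank correlation of the log2 fold change with length was 0.39 in MOG vs. SHAM and -0.407 in GB20 vs. MOG. With length offsets the signs of Hspa1b, Hspb1 and Hsp90aa1 turned in MOG vs. SHAM and that of Hspb8 in GB20 vs. MOG, while Hsph1, which is longer than 82.3% of the genes tested, was at -0.43 in MOG vs. SHAM. The medians with length offsets were -0.04 and 0.07.

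Across the 12 libraries the members fell into pairs that varied together and pairs that did not. Pearson's r of log2 CPM was 0.813 between Hspa1a and Hspa1b, 0.76 between Hspa8 and Dnajb1, and 0.717 between Hspa8 and Hsph1. Hspa1a and Hspa1b share sequence as described above, and the part of this in their correlation was not tested. The inducible HSP70 genes were less close to these partners, at 0.297 (Hspa1a) and 0.377 (Hspa1b) with Dnajb1 and at 0.247 and 0.206 with Hsph1. Within groups, after the group means were removed, the first pair had r = 0.887. Hspa8 followed the mean of the other chaperones most closely (r = 0.814), then Dnajb1 (0.666) and Hsph1 (0.587), whereas Hsf1 (0.242) and Hspb1 (-0.06) were lowest. By gene, Hsf1 was at r = 0.614 with Hspa1a and 0.427 with Hspa1b, and between -0.299 and 0.176 with the other chaperones. On the mean standardised level of the 8 chaperones, SHAM replicate 2 was highest at 1.04 and MOG replicate 2 lowest at -1.05, and both differed from their own group (the other SHAM libraries were at 0.30 and -0.38, the other MOG libraries at 0.01 and -0.36). The 8 genes most like that mean over the 12 libraries were Sirpa (r = 0.918), Dapk3 (0.915), Rasl11a (0.914), Scrt2 (0.903), Aldh2 (0.90), Krtcap2 (0.899), Evc2 (0.883) and Rangap1 (0.881). These are descriptions over libraries that share depth scaling and group differences, picked as the highest among 18299 genes.

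**Figure D4:**
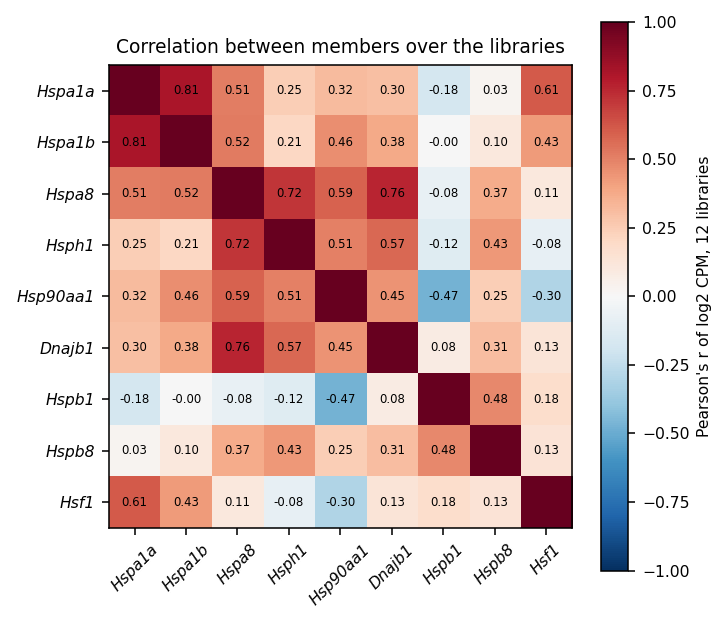
Pearson's r of log2 CPM between each pair of members over the 12 libraries, on a colour scale from -1 to 1. Hspa1a with Hspa1b (0.81), Hspa8 with Dnajb1 (0.76) and Hspa8 with Hsph1 (0.72) are the highest, and Hsp90aa1 with Hspb1 (-0.47) is the lowest.

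The wider chaperone network was described with lists that exclude the members. The lists share genes with each other, so their counts and medians are not separate results. Hspe1 and Hspd1, for example, are among the HSF1 targets, the chaperonins and the mitochondrial chaperones. Hsp90ab1 of the HSP90 family and several co-chaperones, Ahsa1 and Stip1 included, are also among the HSF1 targets. Of the HSF1 target list, 0 of 26 genes were called in MOG vs. SHAM by edgeR, and 10 had an unadjusted p under 0.05 (13% of all genes did). All 10 had a negative log2 fold change. Among them, Hspe1, the mitochondrial co-chaperonin, was at -0.39, Hsp90ab1, the constitutive HSP90, at -0.27, Dnaja1, a J-domain protein, at -0.22, and Hsbp1, a binding protein of HSF1, at -0.22. Their adjusted p-values (Benjamini-Hochberg) began at 0.101. The median of the list was -0.14, and -0.09 with length offsets. Removing the filter on low counts led to 3 lower calls, and the share of all genes called at that setting is not given here. In the 4 of these 26 genes with groups that did not overlap, MOG was below SHAM, against 8.34% of all genes. In GB20 vs. MOG the median of the list was 0.06 with 0 of 26 called and 3 at an unadjusted p under 0.05 (8% of all genes). In GV16 vs. MOG it was 0.03 with 0 called and 2 at an unadjusted p under 0.05 (5.3%).

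The co-chaperones of HSP70 and HSP90, which load, time and release clients, had a median of -0.11 in MOG vs. SHAM. Of these 27 genes, 0 were called and 8 had an unadjusted p under 0.05 (13% of all genes). In GB20 vs. MOG the median was 0.10 (0 called, 1 at an unadjusted p under 0.05, 8% of all genes). In GV16 vs. MOG it was 0.06 (1 called, 2 at an unadjusted p under 0.05, 5.3% of all genes). In each of the needled groups vs. MOG, 23 of 27 were above 0, against 50.2% (GB20) and 50.9% (GV16) of all genes. The same MOG libraries enter both counts, and in MOG vs. SHAM 21 of the 27 were below 0 (50.5% of all genes). In MOG vs. SHAM the median was -0.01 in the HSP70 and HSP110 family (11 genes tested), -0.02 among J-domain proteins (39), -0.03 in the HSP90 family (3), -0.06 among small heat shock proteins (3 of 8 tested), -0.09 among chaperonins (11) and -0.10 among mitochondrial chaperones (11). None of their genes was called, and 0, 2, 1, 0, 3 and 1 of them, in that order, had an unadjusted p under 0.05 by edgeR (13% of all genes). Endoplasmic reticulum chaperones, the targets of the unfolded protein response, had 0 of 17 genes called and 0 at an unadjusted p under 0.05, with a median of -0.02 and a range from -0.12 to 0.14. Among heat shock factors and their regulators the median was -0.13, 0 of 5 were called and 2 had an unadjusted p under 0.05, of which Hsf4, a heat shock factor of the lens, was at -0.50. The other 16 lens markers summed to 14.2 CPM in SHAM replicate 2, 7.84 in GB20 replicate 2 and between 1.30 and 2.91 in the remaining libraries, where Hsf4 is left out of the sum. Hsf4 measured 7.64 CPM in SHAM replicate 2, 6.30 and 6.21 in the other SHAM libraries and 4.36 to 4.98 in MOG, so that all SHAM libraries were above all MOG libraries, and the part of lens RNA in this value was not tested.

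**Figure D5:**
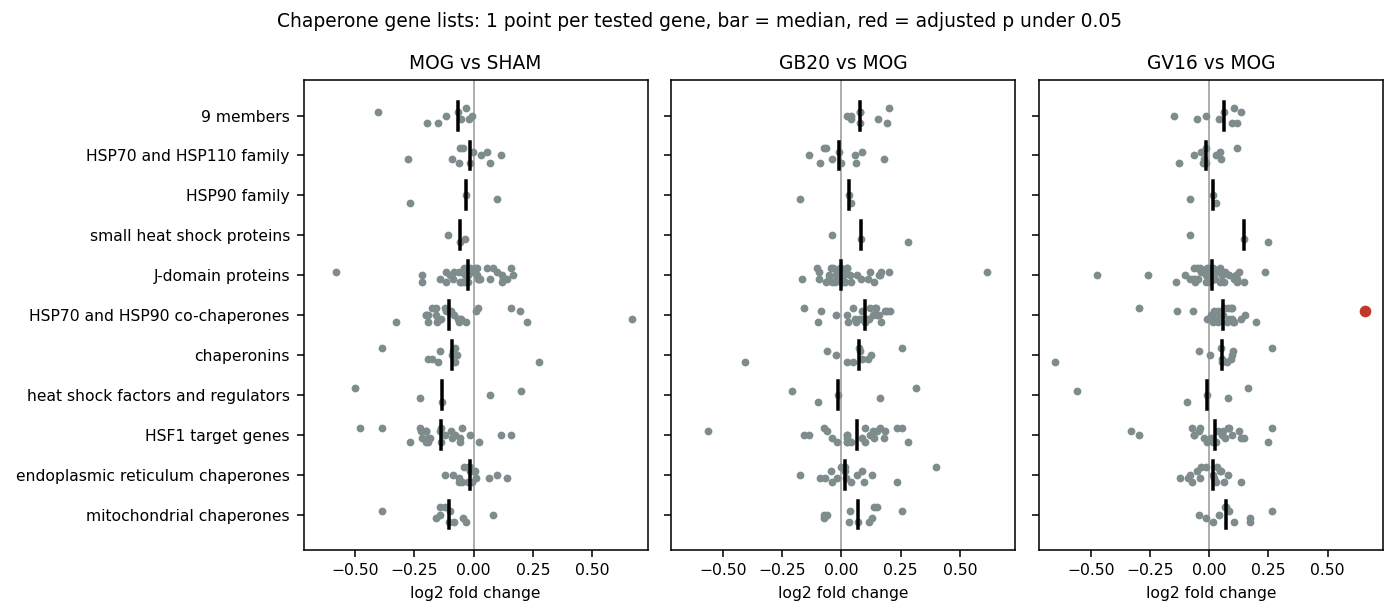
Log2 fold change (edgeR) of each tested gene of the 9 members and of 10 chaperone lists in 3 comparisons, named above the panels, with the median as a black bar and called genes in red. The only red point is Fkbp5 in GV16 vs. MOG, at 0.66.

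Fkbp5 was the only gene of the chaperone lists that was called. It encodes a co-chaperone of HSP90 in steroid receptor complexes and is a well known glucocorticoid target. Its mean level was 26.8 CPM ± 1.102 (SD, n = 3) in SHAM, 30.7 ± 2.28 in MOG, 35.4 ± 5.75 in GB20 and 48.4 ± 3.71 in GV16. It rose in GV16 vs. MOG by 0.66 on the log2 scale (SE 0.101, edgeR adjusted p = 0.00395), and in GV16 vs. SHAM, at 0.85 (SE 0.102, adjusted p = 7.62e-05). In GB20 vs. MOG it was at 0.21 (edgeR adjusted p = 0.628) and in the direct comparison of GB20 with GV16 at -0.45 (SE 0.0998, adjusted p = 0.659), so a difference between the needled groups was not shown. Of the 19 immediate-early genes tested, which respond to neuronal activity and handling, Egr3 alone was called. It rose in GB20 vs. MOG by 1.07 on the log2 scale (SE 0.231, edgeR adjusted p = 0.0488), from 1.47 CPM ± 0.110 (SD, n = 3) to 3.10 ± 0.369. Of all genes, 0.24% were called in that comparison. In MOG vs. SHAM 0 of the 19 were called, with a median of -0.46 and 16 below 0 (50.5% of all genes). There 7 had an unadjusted edgeR p under 0.05 (13% of all genes), and the MOG libraries enter both comparisons. The cold-inducible gene Rbm3 measured 0.25 in GB20 vs. MOG and 0.27 in GV16 vs. MOG on the log2 scale, with adjusted edgeR p-values of 0.533 and 0.771.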

How the data were processed

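The authors enriched polyadenylated RNA, aligned paired-end reads with HISAT2 2.0.5 (mm10 is named in the submitters' notes) and deposited raw counts per gene from FeatureCounts. They also deposited FPKM, computed from the count and gene length. For annotation release, strand setting and multi-mapping, the sources used here give nothing. Total counts per library were between 15860278 and 19194280. Names and positions came from GENCODE vM21 (GRCm38), which named 54495 of 54532 identifiers.

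In R 4.3.3, counts were filtered (edgeR 4.0.16), scaled by TMM and fitted over 12 libraries by robust quasi-likelihood with 4 group means, 2-sided, with Benjamini-Hochberg adjustment over 18299 genes. Alternatives used other size factors, no filter, DESeq2 1.42.0, limma 3.58.1 (voom, and log2(FPKM + 1) or + 0.1), length offsets, a replicate block, 6 libraries, and each library left out. Scripts were tested on simulated data.

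Members and lists were chosen with earlier results of these data known. Text names all members, each gene of the other lists called in any comparison, and the 8 genes most correlated with the chaperones. For cell types, sums and counts are given. The HSF1 targets named, Hsf4 and Rbm3 were chosen after their values were seen, and 1 gene is not reported here. Counts of every replicate pair differed by more than sampling noise.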

Additional observations from a re-analysis of the deposited data

How the results depend on the processing

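Of 54 member changes under 23 alternatives (1242 values), 81 had another sign than the value reported, and in 80 of these both values lay within 1 SE of 0. The exception was Hsf1 in GV16 vs. SHAM, at 0.093 without SHAM replicate 2 and at -0.108 without SHAM replicate 1. An adjusted p under 0.05 was reached by 6 values, all of Hsph1. The number of members called in MOG vs. SHAM was 1 with no filter on low counts, with DESeq2 on 12 libraries and with DESeq2 on the 6 libraries, and between 0 and 1 when each library was left out (1 without MOG replicate 1 or GV16 replicate 3). In GB20 vs. SHAM it was 1 with no filter (Hsph1 at -0.33, edgeR adjusted p = 0.0186). Leaving out a library kept 0 calls in the 5 other comparisons. How many of all genes each of these settings called is not given here, so the calls have no background share beside them. The cause of the differences between settings was not tested.

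Replicate numbers are shared between groups. The paper describes 3 repeats of the experiment, but whether the number marks the repeat is not stated. The deviations of same-numbered libraries correlated at between -0.0966 and 0.286 (median 0.032, 18 pairs, 3 over 0.1). Libraries with different numbers were at between -0.201 and 0.115 (median -0.0152, 36 pairs, 1 over 0.1). These values do not settle whether the libraries are paired. The main fit left them unpaired, and a replicate block was an alternative. With the replicate block, 0 members were called in each comparison, and Hsph1 in MOG vs. SHAM was at -0.41 (edgeR adjusted p = 0.0719). Hspb1 and Hspb8 had the lowest counts of the members, and their spread within a group reached 20.8% and 29.05% (coefficient of variation). Hspa1a, Hspa1b, Hspa8, Hspb1 and Hsp90aa1 share sequence with other genes, and the counting of such reads is uncertain.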
